A study of Mus musculus with 8 samples.

Results

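The genes described here are 34 genes of cholesterol and fatty acid synthesis with their main regulators, followed in mouse Th1 and Th17 cells that carried or lacked Tet2, one of the enzymes that convert the methyl mark on cytosines of DNA to oxidised forms. They were listed by pathway role, with earlier results of these data known, and 33 of them had a probeset (the array's unit of measurement) that the platform annotation pairs with a single gene symbol, out of 19938 genes measured in that way. Acat2, which makes acetoacetyl-CoA, had no such probeset and was not analysed here. The 33 genes fall into 6 of the mevalonate steps, 11 from squalene to cholesterol, 6 regulators of the sterol regulatory element-binding proteins (SREBPs) and sterol transport, and 10 of fatty acid and triglyceride synthesis.

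Total RNA from 8 cell samples was read on 1 Affymetrix array each, in 4 groups of 2 named biological replicates. Naive CD4+ T cells (CD25-, CD62L high, CD44 low) were sorted from spleens and lymph nodes of C57BL/6 mice, wild-type or Tet2-/-, and activated with antibodies to CD3 and CD28. All Th1 samples received IL-12 at 10 ng/ml, IL-2 at 30 U/ml and an antibody to IL-4. All Th17 samples received TGF-β1 at 0.5 ng/ml, IL-6 at 10 ng/ml and antibodies to IFN-γ and IL-4, and the labels leave it unsaid if these ones also received IL-23 and IL-1β. The sources likewise do not give the design of the Tet2 allele, the cells that lack it, or the number, age or sex of the mice, and p-values measure only the spread between these samples. The deposited values are RMA log2 expression levels, so a difference of 1 is a doubling, and the level of one gene's probeset cannot be set against that of another.

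Cholesterol is built from acetyl-CoA by way of mevalonate, squalene and a series of sterols, and dividing lymphocytes need it for new membrane. SREBP-2 and SREBP-1, made from Srebf2 and Srebf1, are membrane-bound transcription factors that the escort protein SCAP carries to the Golgi for cleavage when sterols are low. INSIG proteins hold them back when sterols are plentiful. Fatty acid synthesis through acetyl-CoA carboxylase is known to support the differentiation of Th17 cells.

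The labels were first set against cell type markers. T cell markers read a mean of 10.7 to 10.9 on every array. The 6 measured Th1 markers read 9.66 to 10.1 in Th1 and 8.31 to 8.44 in Th17 samples, and the 6 Th17 markers 8.84 to 9.36 in Th17 and 6.19 to 6.44 in Th1 samples. The Tet2 probeset read 7.97 to 8.53 on all arrays, and with the deleted stretch not given it does not check the genotype. Xist, the RNA that coats the silenced X in female cells, read 5.20 and 10.1 in wild-type and 8.62 and 11.3 in Tet2-/- Th17 samples (replicates 1 and 2) and at most 5.11 in Th1 samples. The mean of 3 Y-linked genes was 8.80, 7.82, 8.71 and 4.85 in the same Th17 samples and 7.94 to 8.24 in Th1 samples. The 4 Th17 samples thus differed in transcripts that follow the sex of the mice, and the members' count and median for the genotype difference in Th17 cells are also given after adjusting for the Y-linked level, and without both samples at the extremes, wild-type replicate 1 and Tet2-/- replicate 2.

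The promoters of 4 members are shown because these are the members whose arrays separated the genotypes in opposite directions in Th17 and Th1 cells. The share of all genes that did so was not counted. Each stretch is the 250 bases before the transcription start in RefSeq (GRCm38.p6), on the gene's own strand. Capitals mark the sterol regulatory element core TCACNCCAC, bound by SREBPs, and the NF-Y box CCAAT, bound by the factor NF-Y that acts with SREBPs, on either strand (CCAAT reads ATTGG on the other strand).
Hmgcs1 (chr13:119690101-119690350, plus strand): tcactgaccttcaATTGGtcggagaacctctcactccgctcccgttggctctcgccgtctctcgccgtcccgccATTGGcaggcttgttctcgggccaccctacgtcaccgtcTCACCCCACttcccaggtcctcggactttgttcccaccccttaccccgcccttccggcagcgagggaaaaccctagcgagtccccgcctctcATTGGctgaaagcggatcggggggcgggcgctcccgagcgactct
Cyp51 (chr5:4104698-4104947, minus strand): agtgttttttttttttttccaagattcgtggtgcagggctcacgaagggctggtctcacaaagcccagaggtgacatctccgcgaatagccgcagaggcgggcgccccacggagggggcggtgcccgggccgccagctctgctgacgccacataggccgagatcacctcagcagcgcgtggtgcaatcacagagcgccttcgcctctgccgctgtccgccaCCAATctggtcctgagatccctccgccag
Insig1 (chr5:28071162-28071411, plus strand): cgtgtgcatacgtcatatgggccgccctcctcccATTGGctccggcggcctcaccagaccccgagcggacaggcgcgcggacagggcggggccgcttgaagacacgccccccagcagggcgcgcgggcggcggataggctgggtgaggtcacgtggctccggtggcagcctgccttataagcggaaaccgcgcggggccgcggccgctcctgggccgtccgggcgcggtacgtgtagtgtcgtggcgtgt
Fads2 (chr19:10101504-10101753, minus strand): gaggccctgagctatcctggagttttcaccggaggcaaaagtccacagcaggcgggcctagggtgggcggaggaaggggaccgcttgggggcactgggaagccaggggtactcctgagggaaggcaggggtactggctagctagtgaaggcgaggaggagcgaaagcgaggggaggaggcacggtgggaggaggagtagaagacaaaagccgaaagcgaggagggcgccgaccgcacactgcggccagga
Hmgcs1 held the core as TCACCCCAC from position -137 and an NF-Y box from positions -237, -176 and -45, where -1 is the base before the start. Cyp51 held an NF-Y box from position -29 and Insig1 from position -216, and neither held the core. Fads2 held neither. For Cyp51, Insig1 and Fads2 alike, this says only that the searched letters are not in the stretch. Forms of the sterol regulatory element with other letters were not searched, here or in the shares below. Windows reaching 50 bases past the start were given for 25 of the 33 members, and the core was in that of 1 of them (4.0%) against 1.41% of 17492 protein-coding genes. The NF-Y box was in 21 of the 25 members (84.0%) against 42.3%, and the Sp1 box GGGCGG, bound by another common SREBP partner, in 21 (84.0%) against 49.2%. The members' windows were also richer in G and C, with a median of 62.3% against 56.3%, and the part of base composition in these shares was not tested. A match is a description of letters, and binding was not measured.

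In Th17 cells most lipid synthesis genes read somewhat higher in Tet2-/- than in wild-type samples, and none passed the test. Of the 33 genes, 29 were higher in the mean, against 56.6% of all genes, with a median difference of 0.21 against 0.02 over all genes. Both Tet2-/- arrays lay above both wild-type arrays for 20 members, where 19.9% of all genes did so, and below them for 1 (Me1), where 13.3% did. Some of the 20 separations were narrow. The nearest wild-type and Tet2-/- arrays read 7.991 and 7.993 for Dhcr7, 8.11 and 8.12 for Ebp, and 8.82 and 8.84 for Sqle. With limma and Benjamini-Hochberg adjustment over all genes 0 of 33 were called at an adjusted p under 0.05 (0% of all genes), and 7 were higher at an unadjusted p under 0.05, a level that 2.81% of all genes reached in that direction. In Th1 cells the direction was mixed: 10 members were higher and 23 lower in Tet2-/- samples, where 52.2% of all genes were higher, with a median of -0.05 against 0.01 over all genes. Again 0 were called (0.00502% of all genes, 1 gene), 7 lay below and 4 above without overlap (14.4% and 18.3% of all genes), and 3 were lower at an unadjusted p under 0.05 (2.97%).

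One array stood out for these genes. Tet2-/- Th17 replicate 1 held the highest of the 8 values for 19 of the 33 members (57.6%), while 14.9% of all genes were highest there. It read above the other Tet2-/- Th17 array for 22 members (66.7%, against 53.4% of all genes). Without it the median difference in Th17 cells fell to 0.10 with 30 of 33 members higher, and without the other Tet2-/- array it was 0.29 with 30 higher. At the opposite end, Tet2-/- Th1 replicate 2 held the lowest value for 11 members (33.3%, against 11.7% of all genes), and without it the Th1 median was 0.07 with 22 members higher. The Th1 median was -0.13 without Tet2-/- replicate 1 and -0.10 without wild-type replicate 1.

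**Figure D1:**
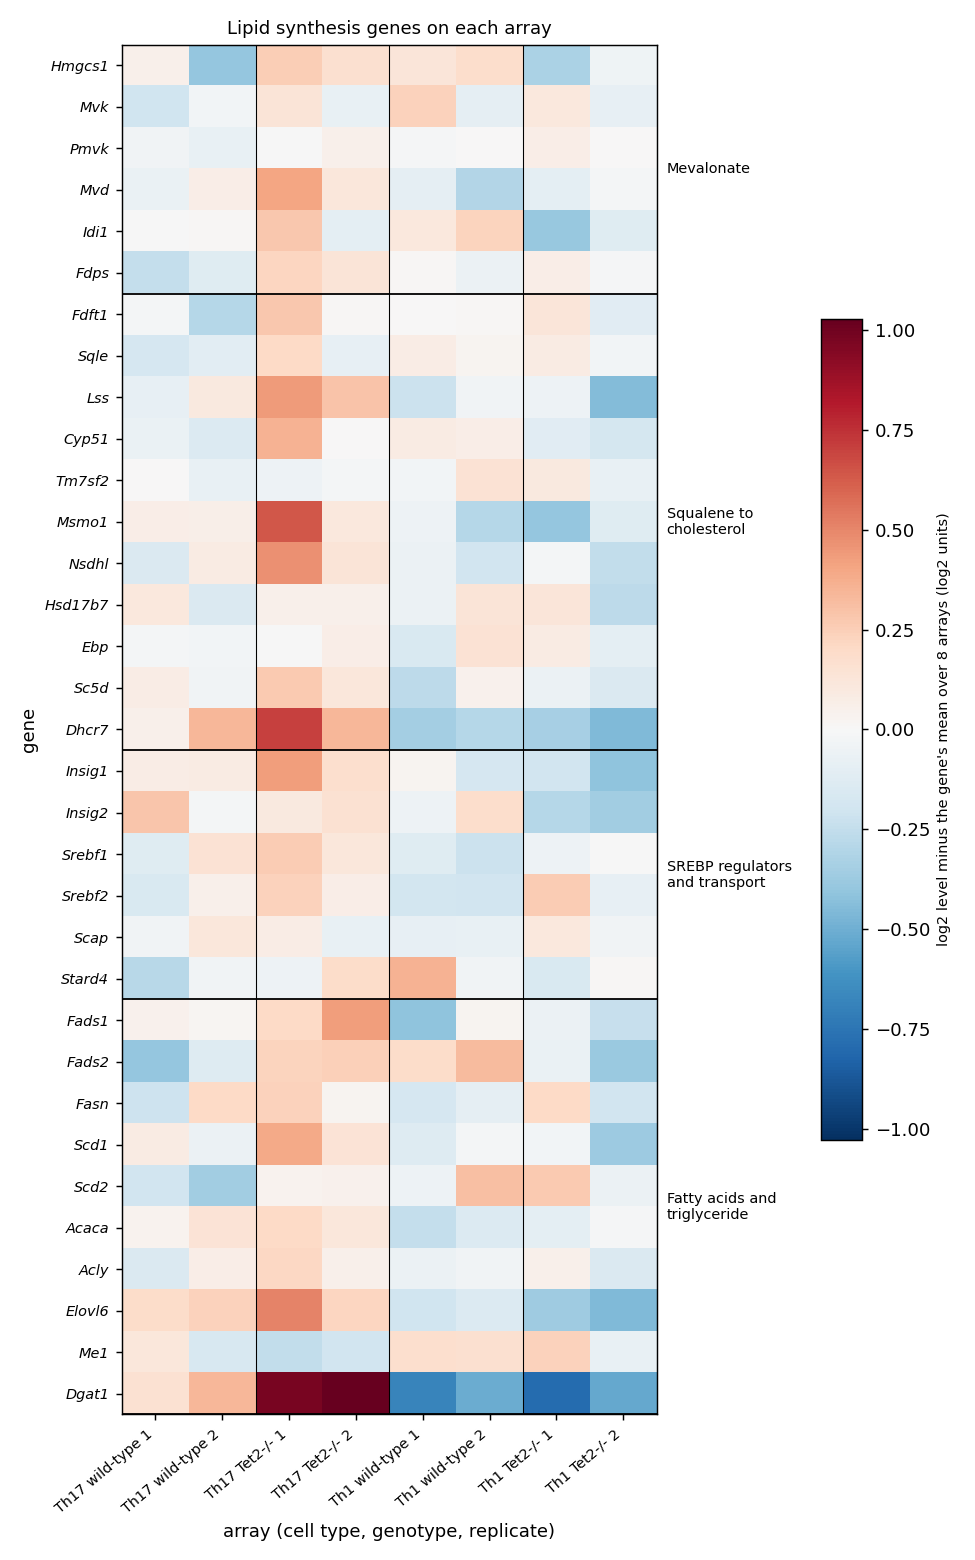
Level of each of the 33 genes on each of the 8 arrays as a log2 difference from the gene's own mean over the arrays (red higher, blue lower), with genes grouped by role. The column of Tet2-/- Th17 replicate 1 holds the highest value for 19 genes, and Dgat1 shows the widest range, 1.82 log2 units.

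The 6 mevalonate genes were all higher in Tet2-/- Th17 samples (median 0.20), with 4 not overlapping (19.9% of all genes were higher without overlap), and 3 of 6 were higher in Tet2-/- Th1 samples. Hmgcs1 encodes the synthase that makes HMG-CoA, the substrate of the rate-limiting step. It read 9.75 and 9.30 in wild-type and 9.95 and 9.86 in Tet2-/- Th17 samples, and 9.82 and 9.88 in wild-type and 9.37 and 9.65 in Tet2-/- Th1 samples. The genotypes did not overlap in either cell type, and the order was opposite: Tet2-/- was higher in Th17 and lower in Th1 cells. The differences were 0.38 (SE 0.158, adjusted p = 0.999 with limma) and -0.34 (SE 0.158, adjusted p = 0.853), neither past the threshold, and wild-type Th17 replicate 2 alone held the lowest value. Idi1, the isomerase of isopentenyl diphosphate, read 9.54 and 9.66 in wild-type and 9.04 and 9.31 in Tet2-/- Th1 samples. Its Th1 groups did not overlap, and the difference was -0.43 (SE 0.148, adjusted p = 0.824 with limma). In Th17 samples Idi1 overlapped, at 9.43 and 9.44 in wild-type and 9.71 and 9.33 in Tet2-/-. Fdps, the synthase of farnesyl diphosphate, read 9.55 and 9.67 in wild-type and 10.01 and 9.92 in Tet2-/- Th17 samples, a separation of 0.36 (SE 0.120, adjusted p = 0.960 with limma). Its 4 Th1 values lay between 9.73 and 9.86, with the genotypes interleaved. Mvd, the decarboxylase, stood at 7.49 and 7.62 in wild-type and 7.96 and 7.67 in Tet2-/- Th17 samples. Of the mevalonate kinases, Mvk overlapped between genotypes in both cell types at 7.22 to 7.66, and Pmvk spanned 0.14 log2 units over all 8 arrays, the narrowest range of any member.

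Of the 11 genes from squalene to cholesterol, 10 were higher in Tet2-/- Th17 samples (median 0.28; 56.6% of all genes) and 9 did not overlap (19.9% of all genes), while 10 were lower in Tet2-/- Th1 samples by small amounts (median -0.05). Lss, the cyclase that forms lanosterol, read 7.86 and 8.04 in wild-type and 8.38 and 8.23 in Tet2-/- Th17 samples, and 7.72 and 7.90 in wild-type and 7.88 and 7.49 in Tet2-/- Th1 samples. The genotypes separated in Th17 cells by 0.35 (SE 0.147, adjusted p = 0.999 with limma) and overlapped in Th1 cells. Cyp51, which demethylates lanosterol, read 8.22 and 8.15 in wild-type and 8.65 and 8.29 in Tet2-/- Th17 samples, against 8.38 and 8.36 in wild-type and 8.17 and 8.11 in Tet2-/- Th1 samples. Like Hmgcs1 it separated the genotypes in opposite orders, by 0.28 (SE 0.132, adjusted p = 0.999 with limma) and by -0.23 (SE 0.132, adjusted p = 0.858). Nsdhl, a dehydrogenase that removes a methyl group from sterols, read 8.51 and 8.74 in wild-type and 9.13 and 8.79 in Tet2-/- Th17 samples, a difference of 0.34 (SE 0.149, adjusted p = 0.999 with limma). Its 4 Th1 values, 8.40 to 8.64, overlapped.

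Dhcr7, the reductase of the last step to cholesterol, was the sterol gene with the clearest contrast between the cell types. It read 7.71 and 7.99 in wild-type and 8.35 and 7.99 in Tet2-/- Th17 samples, and 7.20 to 7.35 on the 4 Th1 arrays. Every Th17 value lay above every Th1 value, while the genotypes nearly touched in Th17 cells (difference 0.32, SE 0.144, adjusted p = 0.999 with limma). Msmo1, an oxidase of methyl-sterols, read 9.12 and 9.11 in wild-type and 9.69 and 9.16 in Tet2-/- Th17 samples, and 8.65 to 9.00 on the Th1 arrays. Tet2-/- Th17 replicate 1 was high, and replicate 2 lay close to the wild-type Th17 arrays. Fdft1, which makes squalene, read 10.16 and 9.89 in wild-type and 10.46 and 10.20 in Tet2-/- Th17 samples. Sqle, which oxidises squalene, read 8.76 and 8.82 in wild-type and 9.14 and 8.84 in Tet2-/- Th17 samples, and neither gene overlapped. Of the other sterol enzymes, over all arrays Tm7sf2 spanned 6.61 to 6.84, Ebp 7.97 to 8.27, Hsd17b7 8.70 to 9.10 and Sc5d 8.70 to 9.23.

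The 6 regulators did not move as one. Insig1, itself a target of SREBPs, read 9.49 and 9.50 in wild-type and 9.85 and 9.59 in Tet2-/- Th17 samples, and 9.44 and 9.25 in wild-type and 9.22 and 9.00 in Tet2-/- Th1 samples. It separated the genotypes upward in Th17 and downward in Th1 cells, the latter by -0.23 (SE 0.138, adjusted p = 0.863 with limma). The nearest Th1 arrays nearly touched, at 9.25 in wild-type and 9.22 in Tet2-/-. Insig2, the related retention protein, read 8.18 and 8.42 in wild-type and 7.94 and 7.88 in Tet2-/- Th1 samples, a difference of -0.39 (SE 0.135, adjusted p = 0.824 with limma), and overlapped in Th17 cells at 8.22 to 8.52. Srebf2 read 9.63 and 9.62 in wild-type and 10.07 and 9.73 in Tet2-/- Th1 samples, the opposite order to Hmgcs1 and Cyp51, and differed by 0.28 (SE 0.143, adjusted p = 0.853 with limma). In Th17 samples it read 9.66 and 9.86 in wild-type and 10.05 and 9.88 in Tet2-/-. Srebf1 stayed between 7.89 and 8.38, and the escort gene Scap between 8.90 and 9.10, over all arrays. Both were also higher without overlap in Tet2-/- Th1 samples. There Srebf1 read 8.06 and 8.11 against 7.98 and 7.89 in wild-type, and Scap 9.09 and 8.95 against 8.90 and 8.90. In Th17 cells the genotypes overlapped for both. Stard4, which carries sterol between membranes, ranged from 8.16 to 8.80 with the genotypes overlapping in both cell types.

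Among the 10 genes of fatty acids and triglyceride, 9 were higher in Tet2-/- Th17 samples (median 0.21) and 7 were lower in Tet2-/- Th1 samples (median -0.05). Dgat1 encodes an enzyme that attaches the last fatty acid in triglyceride synthesis. It read 9.31 and 9.50 in wild-type and 10.13 and 10.18 in Tet2-/- Th17 samples, and 8.47 and 8.65 in wild-type and 8.36 and 8.63 in Tet2-/- Th1 samples. The Th17 genotypes were well apart and the Th1 genotypes overlapped. The Th17 difference of 0.75 (SE 0.135, 95% confidence interval 0.46 to 1.05), a 1.69-fold higher level, was the largest of any member and did not pass over all genes (adjusted p = 0.263 with limma). Without Tet2-/- replicate 1 or any other single array it lay between 0.66 and 0.85. Several smaller differences given above moved by more than 1.5 times with 1 array. Without Tet2-/- Th17 replicate 1 the Th17 difference was 0.11 for Cyp51, 0.17 for Nsdhl and 0.14 for Dhcr7, and without replicate 2 it was 0.46, 0.51 and 0.50. Without wild-type Th17 replicate 1 it was 0.61 for Hmgcs1, 0.22 for Nsdhl and 0.18 for Dhcr7, and without wild-type replicate 2 it was 0.15 for Hmgcs1. In Th1 cells Srebf2 was at 0.11 and 0.45 without Tet2-/- replicates 1 and 2, Hmgcs1 at -0.19 without Tet2-/- replicate 1, and Insig1 at -0.13 without wild-type replicate 1 and -0.12 without Tet2-/- replicate 2. All of these kept their direction.

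Fads2, a desaturase of polyunsaturated fatty acids, read 7.83 and 8.10 in wild-type and 8.46 and 8.47 in Tet2-/- Th17 samples, and 8.42 and 8.56 in wild-type and 8.16 and 7.85 in Tet2-/- Th1 samples. The wild-type Th1 and Tet2-/- Th17 samples were high and the other 4 low, so the genotype order turned over between the cell types. The differences were 0.50 (SE 0.140, adjusted p = 0.742 with limma) in Th17 and -0.48 (SE 0.140, adjusted p = 0.824) in Th1 cells. Fads1, the neighbouring desaturase, read 7.88 and 7.86 in wild-type and 8.04 and 8.27 in Tet2-/- Th17 samples and overlapped in Th1 cells. Elovl6, which elongates palmitate, read 8.69 and 8.74 in wild-type and 9.01 and 8.72 in Tet2-/- Th17 samples, and 8.29 and 8.36 in wild-type and 8.13 and 8.05 in Tet2-/- Th1 samples. It overlapped between genotypes in Th17 cells, lay lower in Tet2-/- Th1 cells by -0.24 (SE 0.128, adjusted p = 0.855 with limma), and every Th17 value was above every Th1 value. Scd2, a stearoyl-CoA desaturase, read 11.25 and 11.09 in wild-type and 11.48 and 11.49 in Tet2-/- Th17 samples against 11.38 to 11.75 in Th1 samples. Its relative Scd1 lay higher without overlap in Tet2-/- Th17 samples, at 9.33 and 9.08 against 9.03 and 8.88.

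The enzymes at the entry to fatty acid synthesis varied less. Acly, which frees acetyl-CoA from citrate, read 9.47 to 9.83 over all arrays, Fasn, the fatty acid synthase, 10.31 to 10.77, and the genotypes overlapped for both in both cell types. Acaca, the acetyl-CoA carboxylase, read 8.89 and 9.00 in wild-type and 9.06 and 8.98 in Tet2-/- Th17 samples, and 8.62 and 8.72 in wild-type and 8.76 and 8.84 in Tet2-/- Th1 samples. A second Acaca probeset gave a Th1 difference of -0.07 where the one used gave 0.13, so its direction in Th1 cells depends on the probeset. Me1, malic enzyme, was the only member below the median over all probesets (6.47 to 6.53) on every array, at 5.84 to 6.33. It read 6.21 and 5.93 in wild-type and 5.84 and 5.90 in Tet2-/- Th17 samples, lower without overlap, and overlapped in Th1 cells.

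**Figure D2:**
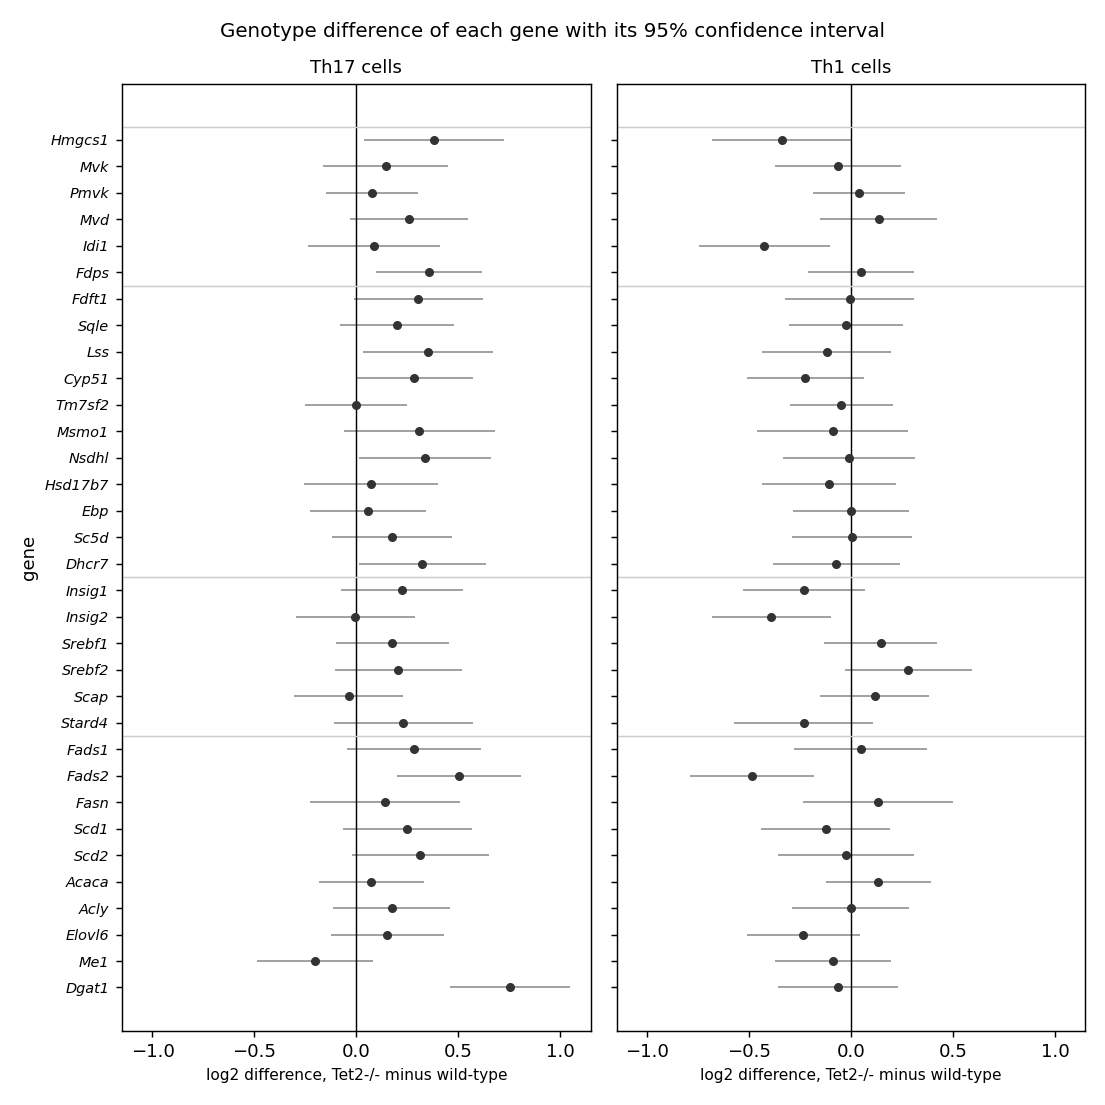
Difference between Tet2-/- and wild-type samples for each of the 33 genes in Th17 and in Th1 cells, on the log2 scale, with 95% confidence intervals from the limma fit. In Th17 cells 29 points lie above 0 and 7 intervals exclude 0, and in Th1 cells 23 points lie below 0 and 3 intervals exclude 0; 0 genes passed after adjustment in either.

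Whether the genotype difference itself depended on the cell type was tested as the Th17 difference minus the Th1 difference. It was above 0 for 29 of 33 members, including all 17 genes of the mevalonate and squalene steps, against 52.7% of all genes, with a median of 0.31 against 0.01. None was called (0% of all genes). The largest was that of Fads2 at 0.99 (SE 0.198, 95% confidence interval 0.56 to 1.42, adjusted p = 0.548 with limma), then Dgat1 at 0.82 (adjusted p = 0.823) and Hmgcs1 at 0.72 (adjusted p = 0.999). Cyp51 at 0.51, Idi1 at 0.51, Lss at 0.47, Insig1 at 0.46 and Elovl6 at 0.39 each had an adjusted p of 0.999. The remaining 25 lay between -0.15 and 0.46. The Th17 and Th1 differences share no array. Together 20 members (60.6%) were higher in Tet2-/- Th17 and lower in Tet2-/- Th1 samples, against 26.1% of all genes. Without Tet2-/- Th17 replicate 1 Cyp51 was at 0.33, Idi1 at 0.32 and Elovl6 at 0.24, and without Tet2-/- Th1 replicate 2 Lss was at 0.28. The median of the difference was 0.18 without Tet2-/- Th17 replicate 1 and 0.17 without Tet2-/- Th1 replicate 2. The direction was not particular to the lipid genes. For the 19 measured cell cycle genes described below, the difference on all arrays was above 0 for 19, with a median of 0.56, and 0 were called.

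**Figure D3:**
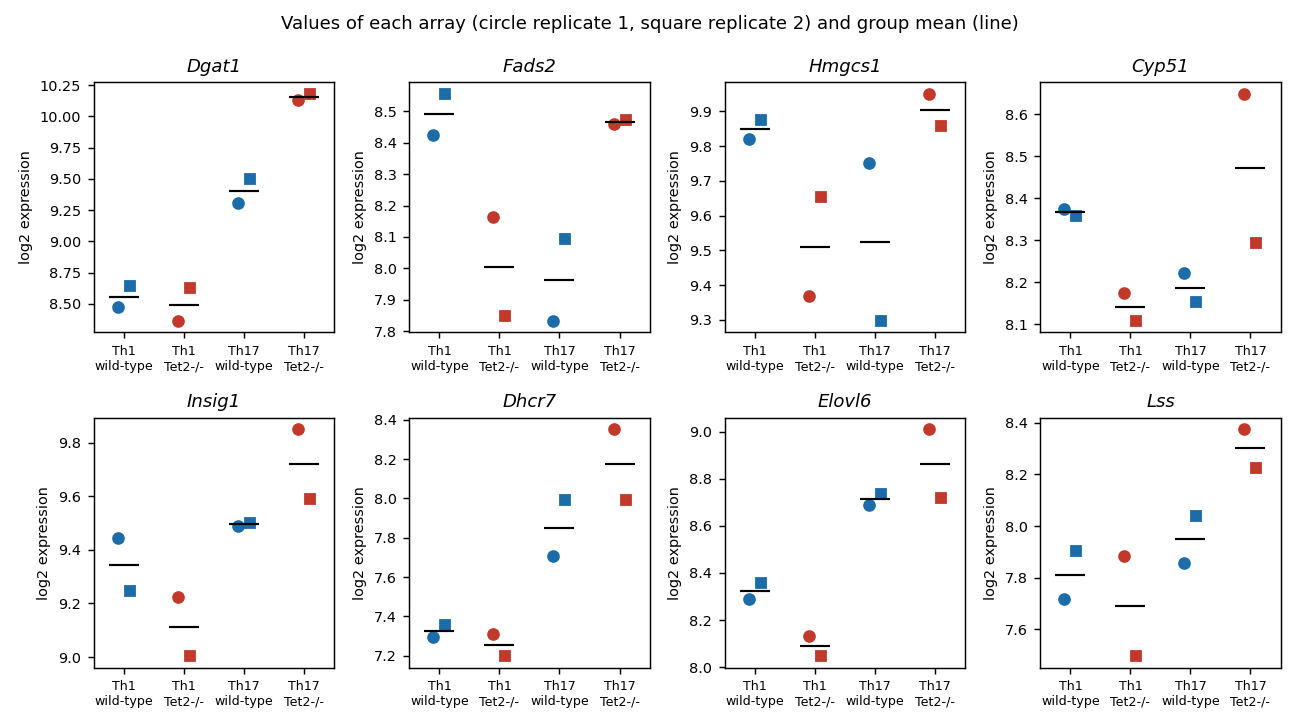
Log2 expression of 8 genes on each array by group, with the group mean as a line; each panel has its own axis, which does not start at 0. Fads2, Hmgcs1, Cyp51 and Insig1 separate the genotypes upward in Th17 and downward in Th1 cells. Dgat1, Dhcr7, Elovl6 and Insig1 lie higher on all Th17 than on all Th1 arrays.

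Other measured features also differed between the groups. The group means of the 19 measured cell cycle genes went in the same directions. Of them 18 were higher in Tet2-/- Th17 samples (median 0.20) and 18 lower in Tet2-/- Th1 samples (median -0.36). Only 3 of the 19 were higher without overlap in Th17 cells (19.9% of all genes), and 12 were lower without overlap in Th1 cells (14.4% of all genes). Among Tet2-/- Th17 arrays the mean of the cell cycle genes was -0.16 from its 8-array average on replicate 1 and 0.30 from it on replicate 2. The lipid genes were at 0.26 and 0.12 there. On wild-type Th17 replicates 1 and 2 the cell cycle genes were at -0.12 and -0.094 and the lipid genes at -0.038 and -0.0041. Tet2-/- replicate 1 thus lay below both wild-type arrays for the cell cycle genes and above both for the lipid genes. On both Tet2-/- Th1 arrays both groups lay below their average, the cell cycle genes at -0.15 and -0.11 and the lipid genes at -0.06 and -0.18 (replicates 1 and 2). The 6 Th17 markers were lower in Tet2-/- Th17 samples for 5 of 6 genes (median -0.25), with means of 9.30 and 9.36 in wild-type and 9.18 and 8.84 in Tet2-/-. Ccl20, a chemokine of Th17 cells, gave the lowest difference among them, -1.01 (adjusted p = 0.224 with limma, and 0.0475 without Tet2-/- Th17 replicate 1). Of the 6 Th1 markers 4 were lower in Tet2-/- Th1 samples (median -0.10). One of them, Ifng, the signature cytokine of Th1 cells, was the 1 gene called in that comparison: it read 11.56 and 11.89 in wild-type and 10.43 and 10.18 in Tet2-/- Th1 samples (-1.42, SE 0.139, adjusted p = 0.00391 with limma). The Ifng call was lost without wild-type Th1 replicate 2 (adjusted p = 0.0685) or Tet2-/- Th1 replicate 2 (0.128), with all probesets tested (0.353) and with the fit restricted to the groups compared (0.161). Markers of stromal and endothelial cells were higher in Tet2-/- Th17 samples for 8 of 8 genes. Their means were 6.80 and 6.90 in wild-type and 7.11 and 7.18 in Tet2-/- Th17 samples, with Cdh5 below the array medians throughout. In Tet2-/- Th1 samples 6 of 8 were higher, with means of 6.52 and 6.57 in wild-type and 6.69 and 6.71 in Tet2-/-. Markers of NK cells were higher in Tet2-/- Th17 samples for 3 of 4, with means of 4.82 and 4.94 in wild-type and 5.18 and 5.37 in Tet2-/-. Their differences ran from -0.05 to 1.24 with a median of 0.19, so the means lean on the highest. Ncr1, Klrb1c and Klra8 were below the array medians on every array. Adipocyte markers, the cells richest in triglyceride synthesis, read 5.37 to 5.49 on all arrays, with Adipoq, Lep and Fabp4 below the array medians. In bulk samples fewer cells of a type and less RNA per cell cannot be told apart. After adjusting for the Y-linked level 31 of 33 members were higher in Tet2-/- Th17 samples with a median of 0.25. Without the 2 samples at the extremes of Y-linked and Xist levels 30 were higher with a median of 0.27. That leaves 1 array in each Th17 group, with Tet2-/- replicate 1, which stood out above, as the only Tet2-/- one. The Y-linked level was 4.85 on Tet2-/- Th17 replicate 2 and 7.82 to 8.80 on the other Th17 arrays. Neither value can thus tell the sex-linked difference apart from the difference between the 2 Tet2-/- Th17 arrays. The part of cell cycle state, of Th1 and Th17 marker levels and of other cell types was not tested.

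**Figure D4:**
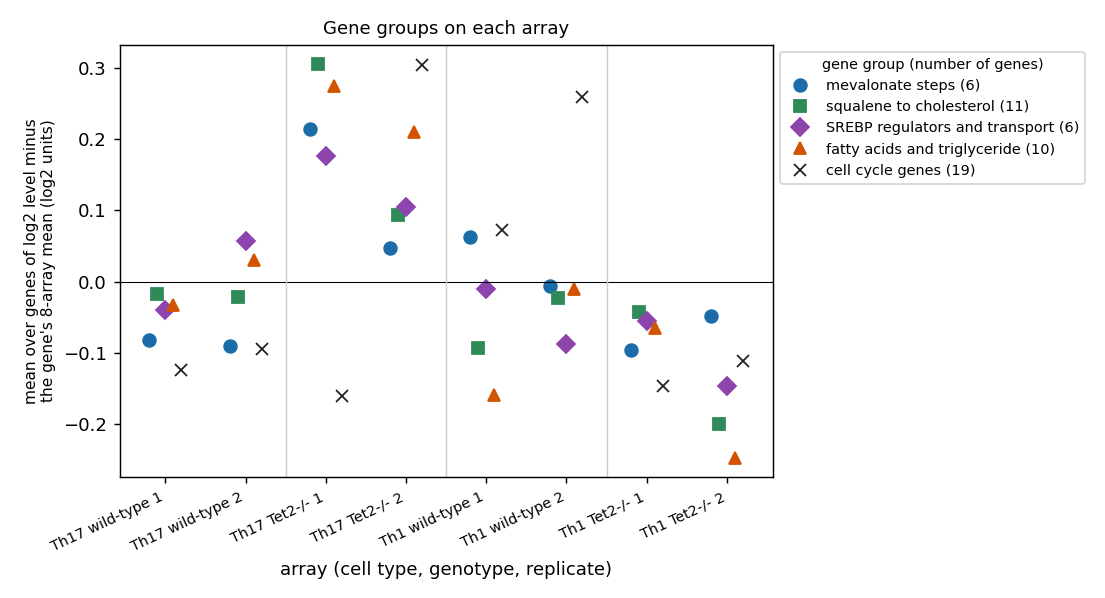
Mean of each gene group on each array, as log2 difference from the gene's own 8-array mean, for the 4 roles of lipid synthesis genes and for 19 cell cycle genes. All 4 lipid groups are highest on Tet2-/- Th17 replicate 1, where the cell cycle genes lie 0.16 below their average.

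Between the cell types the test did call genes. In wild-type samples 3 of 33 members (9.09%) were called between Th17 and Th1 cells, close to the 8.47% of all genes called. Dgat1 and Dhcr7 were higher in Th17 cells (5.30% of all genes were called higher) and Fads2 was lower (3.17% called lower). Dgat1 was 0.84 higher (SE 0.135, 1.79-fold, adjusted p = 0.00212 with limma) and Dhcr7 0.52 higher (SE 0.144, 1.44-fold, adjusted p = 0.0421), while the difference of Fads2 was -0.53 (SE 0.140, 1.44-fold, adjusted p = 0.0365). Over all 33 members the Th17 arrays lay above the Th1 arrays without overlap for 10 and below them for 10, against 25.2% and 26.7% of all genes. Elovl6 at 0.39 (SE 0.128, adjusted p = 0.0816) and Acaca at 0.28 (SE 0.119, adjusted p = 0.172) lay higher, and Scd2 at -0.40, Hmgcs1 at -0.32 and Stard4 at -0.32 lower (adjusted p = 0.130, 0.231 and 0.232 with limma). Over all members 18 were higher and 15 lower (47.2% of all genes were higher), and after quantile normalization 10 were higher and 23 lower, so the split has no settled direction.

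Only the Dgat1 call held in wild-type cells whichever array was left out. By limma with Benjamini-Hochberg adjustment the p of Dhcr7 was 0.297 without wild-type Th17 replicate 2, 0.146 and 0.0864 without wild-type Th1 replicates 1 and 2, and 0.0551 without either Tet2-/- Th1 array. That of Fads2 was 0.196 and 0.0573 without wild-type Th17 replicates 1 and 2, 0.0722 and 0.125 without wild-type Th1 replicates 1 and 2, and 0.0584 without either Tet2-/- Th17 array.

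In Tet2-/- samples 6 of 33 members were called, all higher in Th17 cells, where 7.14% of all genes were called higher and 3.29% lower. Dgat1 was 1.66 higher (SE 0.135, 3.16-fold, adjusted p = 9.96e-06 with limma), Dhcr7 0.92 (SE 0.144, 1.89-fold, adjusted p = 0.00144) and Elovl6 0.78 (SE 0.128, 1.71-fold, adjusted p = 0.00206). Msmo1 at 0.64 (SE 0.171, adjusted p = 0.0326), Lss at 0.61 (SE 0.147, adjusted p = 0.0188) and Insig1 at 0.61 (SE 0.138, adjusted p = 0.0146) also passed. Insig2 and Fads2, both at 0.46, came to an adjusted p of 0.0504 and 0.0555 with limma. In all 28 members were higher in Th17 cells (48.8% of all genes) with a median of 0.22, and 20 did so without overlap (28.8% of all genes), against 1 (Me1) below without overlap (27.6%). After quantile normalization 22 were higher and the median was 0.07. The difference between the genotypes in this contrast is the one tested above, in which none passed, so the longer list here is not shown to differ from that of wild-type cells.

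The calls of Dgat1, Dhcr7 and Elovl6 held without any single array. Without Tet2-/- Th17 replicate 1 the adjusted p was 0.178 for Insig1, 0.159 for Lss and 0.331 for Msmo1, and 3 members were called. Without Tet2-/- Th1 replicate 2 it was 0.111, 0.159 and 0.0502 for the same genes, and again 3 were called. Lss was also lost without Tet2-/- Th17 replicate 2 (0.0561) and Msmo1 without Tet2-/- Th1 replicate 1 (0.224). After quantile normalization the 3 read 0.0589, 0.0672 and 0.122, and the count was 3.

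**Figure D5:**
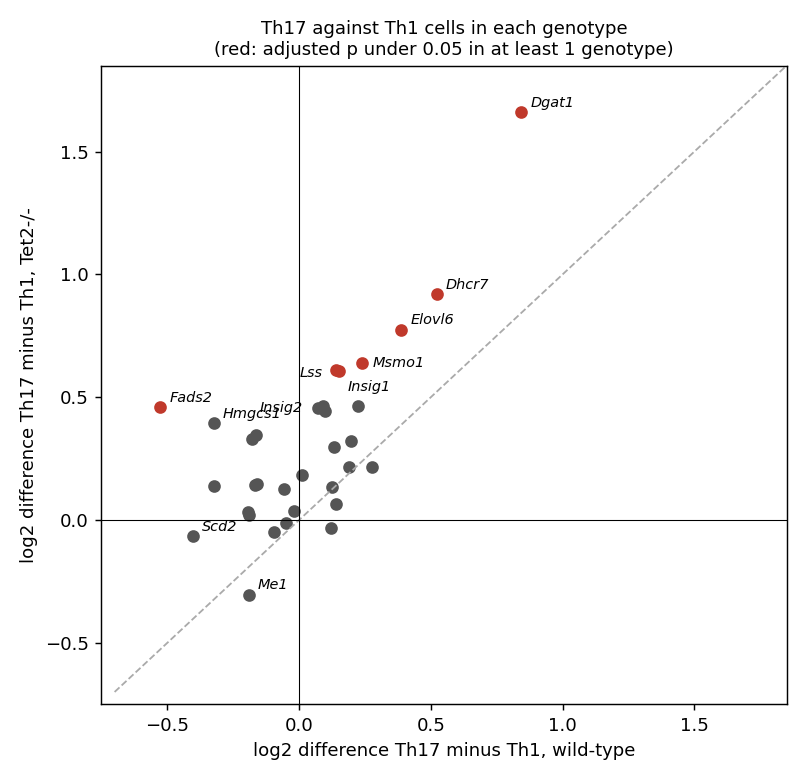
Difference between Th17 and Th1 cells for each of the 33 genes, wild-type samples on the horizontal and Tet2-/- samples on the vertical axis, both on the log2 scale; the dashed line marks equal differences and red points passed in at least 1 genotype. Dgat1 is farthest out at 0.84 and 1.66, and Fads2 lies at -0.53 and 0.46.

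Further genes of lipid metabolism were listed by pathway to set the members in context, and 0 of them were called between genotypes in either cell type. In Th17 cells 5 of 8 other sterol and isoprenoid genes (median 0.05) and 8 of 16 further fatty acid and glycerolipid genes (median 0.0060) were higher in Tet2-/- samples, where 56.6% of all genes were. So were 7 of 10 SREBP processing genes (median 0.07), 7 of 14 for cholesterol uptake and export (median -0.014) and 15 of 17 for fatty acid oxidation (median 0.13). Without overlap 1 of the 8, 5 of the 16, 5 of the 10, 3 of the 14 and 12 of the 17 were higher, against 19.9% of all genes. Of the same 8 genes of sterol and isoprenoid synthesis, 8 were higher in Th17 than in Th1 cells in both genotypes. Their medians were 0.16 in wild-type and 0.28 in Tet2-/- samples, with 0 and 1 called higher. Over all genes 47.2% and 48.8% were higher, and 5.30% and 7.14% were called higher. Of 10 genes that process or degrade SREBP regulators, 2 were called higher in Th17 cells of each genotype (5.30% of all genes in wild-type and 7.14% in Tet2-/- samples). Rnf145, a ubiquitin ligase of the sterol-sensing system, read 10.49 and 10.30 in wild-type Th17 and 9.46 and 9.79 in wild-type Th1 samples, and was 0.77 and 0.93 higher in Th17 cells of wild-type and Tet2-/- samples (adjusted p = 0.00464 and 0.00106 with limma). Sec24d, a coat protein of vesicles leaving the endoplasmic reticulum, was 0.64 higher in Tet2-/- (adjusted p = 0.00393) and 0.45 in wild-type samples (adjusted p = 0.0336), the latter not called without any 1 of the wild-type or Tet2-/- Th17 arrays or wild-type Th1 arrays (0.0525 to 0.217).

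Genes for the uptake, storage and export of cholesterol were also called between the cell types. Among 14 measured, 4 were called higher and 1 lower in wild-type Th17 cells, and 3 higher and 0 lower in Tet2-/- Th17 cells. Over all genes 5.30% and 3.17% were called higher and lower in wild-type and 7.14% and 3.29% in Tet2-/- samples. The list was evenly split in direction, with 7 of 14 higher in Th17 cells in each genotype. Abcg1, which exports cholesterol, read 8.42 and 8.39 in wild-type Th17 and 7.26 and 7.35 in wild-type Th1 samples, higher by 1.10 (adjusted p = 0.000146 with limma) and in Tet2-/- samples by 0.81 (adjusted p = 0.00130). Abca1, another cholesterol exporter, went the other way in wild-type cells: it read 6.49 and 6.65 in Th17 and 7.13 and 7.04 in Th1 samples (-0.51, adjusted p = 0.0171 with limma), and -0.38 in Tet2-/- samples did not pass (adjusted p = 0.0554). The wild-type call was lost without wild-type Th17 replicate 1 (0.106) or wild-type Th1 replicate 1 (0.0831), and Abca1 was named after its values were seen. Lipa, the lysosomal lipase that frees cholesterol from its esters, read 8.11 and 7.98 in wild-type and 8.57 and 8.45 in Tet2-/- Th17 samples against 7.08 to 7.36 in Th1 samples. It was higher in Th17 cells by 0.74 and 1.35 (adjusted p = 0.00227 and 1.94e-05 with limma), and its genotype difference in Th17 cells was 0.46 (SE 0.119, adjusted p = 0.730). Among 16 further genes of fatty acid and glycerolipid synthesis, Lpin1, a phosphatase one step ahead of DGAT enzymes, was 1.12 higher in Tet2-/- Th17 than Th1 cells (adjusted p = 0.000204 with limma), and Acss2, which makes acetyl-CoA from acetate, 0.85 (adjusted p = 0.000658). Dgat2, the other DGAT enzyme, was not called in any of the 5 comparisons and read 6.62 to 6.91 on all arrays.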

How the data were processed

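RNA of 8 samples, 2 in each of 4 groups, was measured on Affymetrix arrays. The deposited table holds log2 values that the authors summarised per probeset by RMA in Partek, per the submitters' processing notes. Versions, filters and the build behind the probesets are not given in the sources used here. Base 2 was inferred from the values, which run from 2.71 to 14.1. Of 35556 probesets, 21789 carried 1 gene symbol, 1621 several and 12146 none, and 19938 genes were each represented by their probeset of highest average level, with no filter on low values. Acaca, Fdft1, Idi1 and Me1 were among the 999 genes with several probesets.

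In R 4.3.3, limma 3.58.1 estimated 1 mean for each group from the 8 arrays together (lmFit; eBayes, trend by intensity), with 4 residual and 8.44 prior degrees of freedom. Contrasts were Tet2-/- minus wild-type in each cell type, the difference of these, and Th17 minus Th1 in each genotype. Tests were two-sided with Benjamini-Hochberg adjustment over all 19938 genes, and calls were made at adjusted p-values under 0.05. The procedure was run on simulated data with independent noise for each gene. That run was a check of the code and is not used to judge differences of the size seen in the members. In each contrast the 8 members with the smallest unadjusted p are given with their statistics, and from each other gene list up to 3 genes. The members and the gene lists were chosen with earlier results of these data known, so lists are described by counts and medians beside those of all genes, without a test. The number of arrays limits the precision: the standard error of a member's difference between 2 groups was 0.105 to 0.171. Promoter windows came from RefSeq (GRCm38.p6), and motifs were searched on both strands. Alternatives covered normalization, filters, probeset choice, the samples fitted, the replicate number as a block, a Y-linked covariate and leaving out arrays.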

Additional observations from a re-analysis of the deposited data

Results flagged for a closer look

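In 4 members both Tet2-/- arrays lay on one side of both wild-type arrays in Th17 cells and on the other side in Th1 cells. The share of all genes that did so was not counted, so 4 is not shown to be many. Over all genes 19.9% were higher without overlap in Tet2-/- Th17 and 14.4% lower without overlap in Tet2-/- Th1 samples. Each of the 4 members was marked because the genotype difference pointed in opposite directions in the cell types. The difference of these differences was tested with limma and adjusted over all genes, where none passed. For Fads2, the desaturase of polyunsaturated fatty acids, the genotype difference was 0.50 in Th17 and -0.48 in Th1 cells, which differ by 0.99 (SE 0.198, unadjusted p = 0.000285, adjusted p = 0.548). For Hmgcs1, the HMG-CoA synthase, 0.38 and -0.34 differ by 0.72 (SE 0.223, adjusted p = 0.999). For Cyp51, the lanosterol demethylase, 0.28 and -0.23 differ by 0.51 (SE 0.187, adjusted p = 0.999). For Insig1, the SREBP retention protein, 0.23 and -0.23 differ by 0.46 (SE 0.196, adjusted p = 0.999). Its nearest Th1 arrays nearly touched, at 9.25 in wild-type and 9.22 in Tet2-/-.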

How the results depend on the processing

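Over 712 alternative values of the 40 member results with statistics, 661 kept their direction and side of the threshold, 37 lost a call, 14 gained one and 0 reversed. No member was called between genotypes, or in the difference of the genotype effects, under any alternative run. Replicate numbers were not shown to pair samples (same-number deviations correlated at -0.19 to 0.05 over all genes), and with the replicate number as a block the wild-type lineage comparison called 1 member in place of 3 and 1411 genes in place of 1689; other member counts and medians stayed within the limits used.

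In wild-type cells (Th17 against Th1), 1 member was called with all probesets tested, with the fit restricted to the groups compared and with the Y-linked covariate; quantile normalization gave 10 members higher and a median of -0.066. In Tet2-/- cells quantile normalization gave 3 called members and a median of 0.067, all probesets 3 called, and averaging probesets a median of 0.28. Leaving out genes of below-median level gave 10 called of 32. That adjustment was made over fewer genes, so its count cannot be set directly against that of the main run. Over all genes, testing all probesets called 622 (wild-type) and 1064 (Tet2-/-) against 1689 and 2078, and 0 in the Th1 genotype comparison, which was also 0 with only the groups compared. Leaving out the 2 Th17 samples at the sex-linked extremes together gave 0 genes in the Th1 genotype comparison, 808 and 975 in the lineage comparisons, and member medians of 0.27 (Th17 genotype), 0.017 (wild-type lineage) and 0.29 (Tet2-/- lineage); the cell cycle gene Kif20a turned from 0.38 to -0.010 in the Th17 genotype comparison. The causes were not tested.

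Leaving out 1 array in turn gave, for the Th17 genotype comparison, 0 to 9 genes called and member medians of 0.10 to 0.29. For Th1 it gave 0 to 2 genes, 9 to 22 members higher and medians of -0.13 to 0.068. For the difference of effects it gave 0 to 4 genes and medians of 0.17 to 0.35. The wild-type lineage comparison gave 1 to 2 members called where 3 were called on all arrays, 667 to 1560 genes and medians of -0.025 to 0.0705, and the Tet2-/- one 3 to 8 members, 815 to 2383 genes and medians of 0.16 to 0.29. Where 1 array was left in a group, its spread was assumed to equal that of the other groups. With 2 arrays a group, the difference that gives an unadjusted p of 0.05 had a median of 0.27 log2 units over all genes.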

Other observations

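Genes of fatty acid oxidation, the route opposite to synthesis, also differed between the cell types. Of 17 measured, 14 were higher in wild-type and 15 in Tet2-/- Th17 than in Th1 cells (47.2% and 48.8% of all genes), with 2 and 5 called higher by limma after Benjamini-Hochberg adjustment (5.30% and 7.14% of all genes). Hadh, a dehydrogenase of the oxidation cycle, read 9.26 and 9.43 in wild-type and 9.60 and 9.66 in Tet2-/- Th17 samples and 8.63 to 8.82 in Th1 samples, and was 0.84 higher in Tet2-/- Th17 cells (adjusted p = 0.000807 with limma). Acadm, the medium-chain acyl-CoA dehydrogenase, was 0.80 higher in wild-type Th17 cells (adjusted p = 0.00130 with limma). Between genotypes 0 were called in either cell type. In Th17 cells 15 of 17 were higher in Tet2-/- samples, 12 of them without overlap (19.9% of all genes), with a median of 0.13 against 0.02 over all genes. In Th1 cells 12 of 17 were higher, 3 of them without overlap (18.3% of all genes), with a median of 0.05 against 0.01. Cpt1a, which brings fatty acids into mitochondria, gave 0.40 in Th17 and 0.27 in Th1 cells (adjusted p = 0.902 and 0.853 with limma).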
